A study of Daphnia magna with 4 samples.

Results

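These transcripts differed at least 2-fold between the unexposed pools of a Daphnia magna exposure experiment, while the atrazine-exposed libraries did not lie apart from both of those pools. They were chosen on the deposited CPM, each count scaled so that a library sums to 1000000. The larger of the untreated values had to be at least 4 CPM and at least 2 times the smaller. The range of the atrazine values had to overlap the range of the untreated values. The rule gave 109 of 14528 features in the deposited CPM table, or 0.934% of the 11676 that reached 4 CPM in the higher untreated library, with 58 higher in untreated replicate 5 and 51 higher in untreated replicate 1. Of those 11676 features, 319 (2.73%) were at least 2-fold apart between the untreated libraries. The other 210 of these had both atrazine libraries above (102) or below (108) the untreated range, and they are used here only for comparison.

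RNA was sequenced from whole animals, 3 pooled in each library, in 2 atrazine libraries (replicates 2 and 4) and 2 untreated libraries (replicates 5 and 1). Exposed animals spent 96 hours in 40 µM atrazine, a triazine herbicide, with DMSO as the solvent, and all animals were labelled as adults of 7 days. Untreated animals were unexposed, and whether DMSO was added to their water is left unstated. If it was not, effects of the carrier and of the herbicide cannot be told apart. The series' design text speaks of 5 samples, and the 4 listed here were analysed. Library totals ran from 16044118 to 17675476 reads.

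Daphnia magna is a planktonic crustacean and a standard animal of aquatic toxicity testing. Adult females reproduce mostly by parthenogenesis and moult with each brood. The transcripts described here bear on how far unexposed pools of such animals differ from each other, which is the spread that an effect of exposure is set against. In whole-animal RNA, fewer cells of a type and less RNA per cell cannot be told apart. The files name features by the letters rna and a number, and 0 of these IDs matched the RefSeq gene table at hand, so no function can be given for any feature named here.

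The 109 features fell into 4 patterns, set by which untreated library lay farther from the mean of the atrazine libraries on the log2(CPM + 1) scale, and on which side. Standing apart means here only being the farther untreated library, not that the other libraries agreed. Untreated replicate 5 stood apart in 82 features, 46 of them high and 36 low in that library. Untreated replicate 1 stood apart in 27 features, with 15 high and 12 low. The rule treats the untreated libraries alike, so this split was not fixed by it. The atrazine mean was thus nearer to untreated replicate 1 in 75.2% of the features, against 49.0% of all features with at least 4 CPM in the higher untreated library. The share was 59.1% of the 418 features at an untreated fold of 1.5, 63.3% of the 30 at a fold of 3, and 63.4% of the 232 at a minimum of 1 CPM. Among the 210 features whose atrazine libraries lay outside the untreated range, 206 (98.1%) were nearer to untreated replicate 1. Only 5 of the 109 lay within 0.2 log2 of equal distance, where the assignment could easily change. These shares describe 4 libraries and carry no test.

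**Figure D1:**
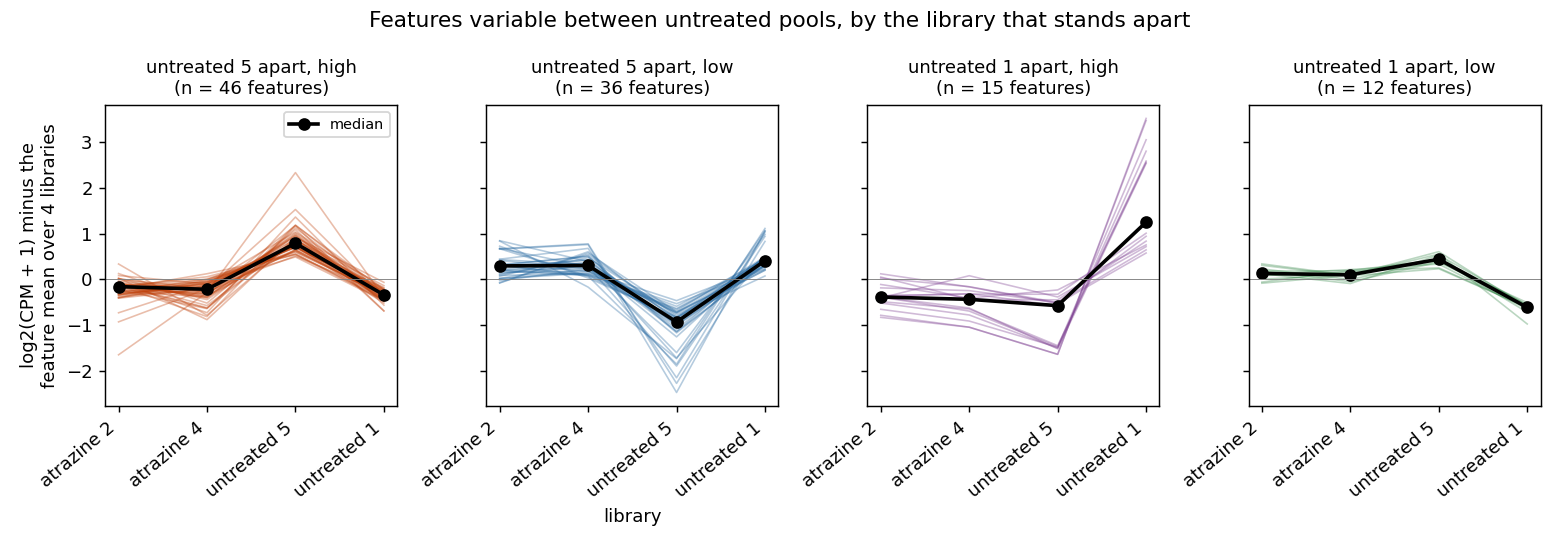
Each line is 1 feature and shows its log2(CPM + 1) in the 4 libraries minus its own mean, in 4 panels by the untreated library that stands apart, with the panel median in black. The 46 and 36 features in the left panels peak or dip in untreated 5, and the 15 and 12 in the right panels do so in untreated 1.

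The features with untreated replicate 5 apart and high had moderate folds. Over these 46, the median level was 14.2 and 15.1 CPM in atrazine replicates 2 and 4, 26.9 CPM in untreated replicate 5 and 12.8 CPM in untreated replicate 1. The fold between the untreated libraries, higher over lower (the untreated fold), had a median of 2.27, and only 7 of the 46 reached 3-fold. In all 46 the atrazine mean was within 1.5-fold of untreated replicate 1, and in 25 it was at least 2-fold below untreated replicate 5. These folds, like all such distances from the atrazine mean, are on the log2(CPM + 1) scale and so are folds of CPM + 1. The added 1 shrinks ratios at low levels, where folds of plain CPM can be larger.

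The feature with the largest fold in this direction was rna5732. It had 0.687 and 3.34 CPM in atrazine replicates 2 and 4, against 25.8 CPM in untreated replicate 5 and 3.03 CPM in untreated replicate 1. These values rest on 11 and 55 reads with atrazine, and on 455 and 50 reads in untreated replicates 5 and 1. Untreated replicate 5 was the highest library, and the atrazine libraries lay on both sides of untreated replicate 1. Atrazine replicate 2, with 11 reads, also lay at least 4-fold below every other library. The untreated fold was 8.52, with a 95% interval of 6.35 to 11.6 that covers counting error only, as do all intervals below.

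The most abundant feature higher in untreated replicate 5 was rna9698. It had 708 and 848 CPM in atrazine replicates 2 and 4, 1508 CPM in untreated replicate 5 and 713 CPM in untreated replicate 1, and its untreated fold was 2.11 (2.07 to 2.16). The atrazine libraries lay on both sides of untreated replicate 1, and untreated replicate 5 was above the other 3 libraries. With 11776 to 26615 reads in the untreated libraries, counting error is small here, and the fold rests on a single pool on each side.

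The features with untreated replicate 5 apart and low reached larger folds. Over these 36 features the median level was 23.4 and 19.8 CPM in atrazine replicates 2 and 4, 6.345 CPM in untreated replicate 5 and 25.8 CPM in untreated replicate 1. The untreated fold had a median of 2.79 and a maximum of 16.0 (10.3 to 26.2), with 11 features at 4-fold or more and 4 at 10-fold or more. Those 4 had only 11 to 88 reads in untreated replicate 5. In CPM + 1, the atrazine mean was at least 2-fold above untreated replicate 5 in 26 of the 36. In 33 it was within 1.5-fold of untreated replicate 1. In 10 features untreated replicate 5 lay at least 4-fold below every other library, whereas 0 features lay as far below in untreated replicate 1. These 10 include all 4 members of the run at numbers 2746 to 2750, described below, and some had as few as 11 reads in untreated replicate 5.

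The features with untreated replicate 1 apart and high were few in number and included the most abundant members. Their median level was 56.4 and 48.4 CPM in atrazine replicates 2 and 4, 31.7 CPM in untreated replicate 5 and 276.5 CPM in untreated replicate 1. In 8 of these 15 features the atrazine mean was within 1.5-fold of untreated replicate 5 in CPM + 1, and in the others it was farther away. The untreated fold had a median of 4.77, and 7 of the 15 exceeded 10-fold. Those 7 were also at least 4-fold above every other library. They took 0.501% and 0.419% of the deposited CPM in atrazine replicates 2 and 4, 0.259% in untreated replicate 5 and 5.58% in untreated replicate 1. Since CPM values of a library sum to a fixed total, the share these features take is lost to the others in untreated replicate 1. On the deposited CPM, which already carry this loss, the typical feature was not lower there. Over features with at least 4 CPM, the median log2 ratio of untreated replicate 5 over replicate 1 was -0.039. It was -0.118 with the 7 left out of the totals. On the deposited CPM, 44.0% of these features were higher in untreated replicate 5. With the 7 left out of the totals, a setting chosen after seeing the data, the rule gave 102 features, of which 35 (34.3%) were higher in untreated replicate 5, against 58 (53.2%) of the 109. TMM and RLE scaling moved this split the other way, to 65 (58.6%) and 66 (59.5%) of 111. All other members together took 0.519% and 0.537% in atrazine replicates 2 and 4, 0.728% in untreated replicate 5 and 0.543% in untreated replicate 1.

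The largest fold of all belonged to rna22096, one of these 7. It had 56.4 and 48.4 CPM in atrazine replicates 2 and 4, 31.7 CPM in untreated replicate 5 and 1173 CPM in untreated replicate 1, an untreated fold of 37.0 (34.0 to 40.3). The atrazine libraries were close to each other, above untreated replicate 5 and far below untreated replicate 1. The same order held for rna11286, the feature with the highest mean level. It had 1974 and 1647 CPM in atrazine replicates 2 and 4, 995.03 CPM in untreated replicate 5 and 19784 CPM in untreated replicate 1, an untreated fold of 19.9 (19.6 to 20.2). Among all kept features it ranked 40 and 47 by level in the atrazine libraries, 89 in untreated replicate 5 and 5 in untreated replicate 1.

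The 7 features kept this order one by one. All 7 were higher in atrazine replicate 2 than in atrazine replicate 4, by 1.12- to 1.24-fold. Atrazine replicate 2 exceeded untreated replicate 5 by 1.78- to 2.2-fold, and atrazine replicate 4 did so by 1.49- to 1.86-fold. The ratios among these 3 libraries were therefore alike over the 7, while their untreated folds spread from 16.5 to 37.0. The 2 features with most reads held 69.8% and 69.7% of the reads of the 7 in atrazine replicates 2 and 4, 71.4% in untreated replicate 5 and 71.2% in untreated replicate 1. Within the 7, single shares did change between libraries, as their unequal untreated folds require.

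The features with untreated replicate 1 apart and low formed the smallest and flattest pattern. The median level of the 12 features was 12.8 and 12.6 CPM in atrazine replicates 2 and 4, 16.1 CPM in untreated replicate 5 and 6.751 CPM in untreated replicate 1. Untreated folds ran from 2.03 to 3.17. In 11 of the 12 both atrazine libraries lay within the untreated range.

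**Figure D2:**
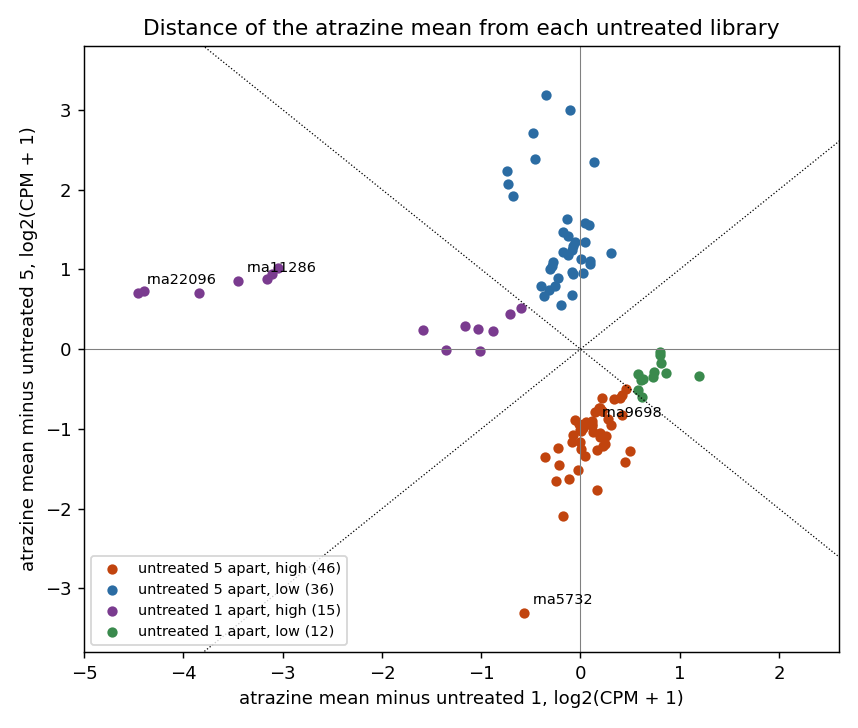
Each point is 1 of the 109 features, with the atrazine mean minus untreated 1 on the x axis and minus untreated 5 on the y axis, both in log2(CPM + 1), and dotted lines mark equal distance. Most points lie along the y axis, near untreated 1, and the 7 features of highest fold lie far to the left.

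Over the whole set, both atrazine libraries lay within the untreated range in 68 features. In the other 41 a single atrazine library was within it, and the other atrazine library was below the range in 28 and above it in 13. The set covers a wide span of levels, with mean CPM from 1.858 to 6100 and a median of 17.2, against 24.6 for all features with at least 4 CPM in the higher untreated library. By mean level, members made up 1.66% of such features under 10 CPM, 0.575% of those from 10 to under 100 CPM and 1.54% of those at 100 CPM or more, so the set was not only one of low features. No member had 0 reads in any library, and the lower untreated library held at least 11 reads, with a median of 165. The counting interval of the untreated fold lay above 1 in all 109 and above 2 in 59, on the values that chose the members, so this describes depth and supports nothing further. In 22 members the lower untreated library held under 50 reads.

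Many members lay close to the limits of the rule, and 38 had untreated folds from 2 to under 2.2. The member nearest to the fold limit had 157.8 and 198.3 CPM with atrazine, against 265.0 and 132.5 CPM in untreated replicates 5 and 1. The nearest feature outside had an untreated fold of 1.99. At the level limit, the values in the higher untreated library were 4.06 CPM inside and 3.94 CPM outside. At the overlap limit, the nearest member had 24.0 and 24.6 CPM in the atrazine libraries against 24.5 and 63.5 CPM in untreated replicates 5 and 1. The nearest feature outside had 158.0 and 197.9 CPM against 52.7 and 157.7 CPM.

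The atrazine pair of libraries gave a measure that the untreated fold did not use. The fold between atrazine replicates 2 and 4, higher over lower, had a median of 1.18 over the 109 features and of 1.08 over all features with at least 4 CPM. At least 2-fold differences within the atrazine pair were found in 6 of the 109 (5.5%), against 0.548% of all such features and 9.05% of the 210 features outside the untreated range. All 6 had a mean below 10 CPM, the highest at 9.45, and 5 of them were high in untreated replicate 5. Such low features were more common among members, at 42 of the 109 against 2533 of all 11676. These comparisons were not matched for level, so how much of the contrast goes with level was not tested. The requirement of overlap itself favours features whose atrazine values lie apart, so the measure is not fully independent of the rule.

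Applied the other way round, with the atrazine pair in the place of the untreated pair, the same rule gave 17 of 11563 features. Of these, 1 was also among the 109, which make up 0.934% of features with at least 4 CPM in the higher untreated library. Of these 17, 12 were higher in atrazine replicate 2 and 5 in atrazine replicate 4. Only 47 of the 11563 features with at least 4 CPM in the higher atrazine library were at least 2-fold apart within that pair. Within the untreated pair this was so for 319 of 11676 (2.73%).

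**Figure D3:**
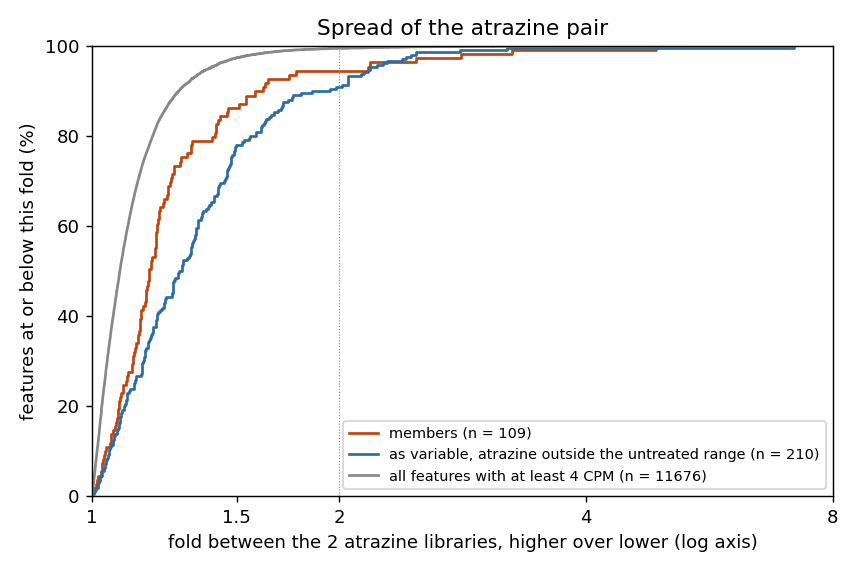
Cumulative share of features (y axis, percent) by the fold between the 2 atrazine libraries (x axis, log scale), for the 109 members, the 210 features outside the untreated range and all 11676 features with at least 4 CPM. The members lie to the right of all features, with medians of 1.18 and 1.08, and left of the 210 over most of the range. The sets were not matched for level.

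Some members were numbered close together, and the rule did not use the numbers. Another member lay within 10 numbers of 30 members (27.5%), and this was so for 8.72% of all features with at least 4 CPM. For directly adjacent numbers the shares were 11.0% and 1.05%. The 7 adjacent pairs all had the same pattern in both features. Several of these pairs share a feature or lie among the 7 abundant features, so they are not separate observations. Within 10 numbers, 16 of 24 pairs had the same pattern and 18 the same direction. Within 50 numbers, only 22 of 54 pairs had the same pattern and 27 the same direction. The numbering was not matched to a genome here, and how multiply mapping reads were counted is stated in none of the sources used, so counts of adjacent features are uncertain where they share sequence.

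Members within 3 numbers of another formed 9 runs that held 21 of the 109 features, and 6 of the runs had a single pattern throughout. The runs were picked out after their values were seen. The 7 features of untreated replicate 1 made up 3 of them, at numbers 11285 to 11286, 22095 to 22096 and 22191 to 22193. In the last of these, the 3 untreated folds were 16.6 (15.9 to 17.3), 16.7 (16.2 to 17.3) and 16.5 (16.0 to 17.1), the same within counting error, although the levels in untreated replicate 1 differed from 1991 to 3893 CPM. The folds at numbers 22095 and 22096 also overlapped in their intervals, at 34.9 (33.6 to 36.2) and 37.0 (34.0 to 40.3). Those at 11285 and 11286 did not, at 23.3 (22.9 to 23.7) and 19.9 (19.6 to 20.2).

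The longest run lay at numbers 2746 to 2750 and was low in untreated replicate 5. Its 4 members summed to 56.7 and 42.1 CPM in atrazine replicates 2 and 4, 7.195 CPM in untreated replicate 5 and 76.8 CPM in untreated replicate 1. Each of the 4 was lowest in untreated replicate 5, and their untreated folds ran from 6.51 (3.415 to 13.7) to 16.0 (10.3 to 26.2). Number 2749, the only feature of the run that is no member, did not reach 4 CPM and was also lowest in untreated replicate 5, with 1.93 and 2.98 CPM in the atrazine libraries, 0.113 CPM in untreated replicate 5 and 2.91 CPM in untreated replicate 1. At numbers 6577 and 6578 the untreated folds were 2.11 (1.88 to 2.36) and 2.10 (1.89 to 2.33), again low in untreated replicate 5.

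Neighbours did not always move together. At numbers 5453 and 5455 the features went opposite ways. The first had 51.7 and 55.5 CPM in atrazine replicates 2 and 4, 4.986 CPM in untreated replicate 5 and 68.2 CPM in untreated replicate 1. The second had 0.562 and 1.58 CPM in atrazine replicates 2 and 4, 7.59 CPM in untreated replicate 5 and 1.27 CPM in untreated replicate 1. Untreated replicate 5 was thus the lowest library for the first and the highest for the second. The runs at 4463 to 4465 and at 15089 to 15092 also joined features of different patterns. Of the 5 kept features inside runs that are no members, some departed from the members beside them. Number 4464 had 75.7 and 86.1 CPM in atrazine replicates 2 and 4, 68.7 CPM in untreated replicate 5 and 53.5 CPM in untreated replicate 1. Number 5454 had 0.374 and 0.182 CPM with atrazine, below 2.95 and 3.75 CPM in untreated replicates 5 and 1. Number 15090 likewise had 2.87 and 3.34 CPM with atrazine, below 9.97 and 5.93 CPM in untreated replicates 5 and 1. Number 15091 was high in untreated replicate 5 alone, with 3.99 and 4.01 CPM with atrazine against 7.14 and 4.06 CPM in untreated replicates 5 and 1.

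**Figure D4:**
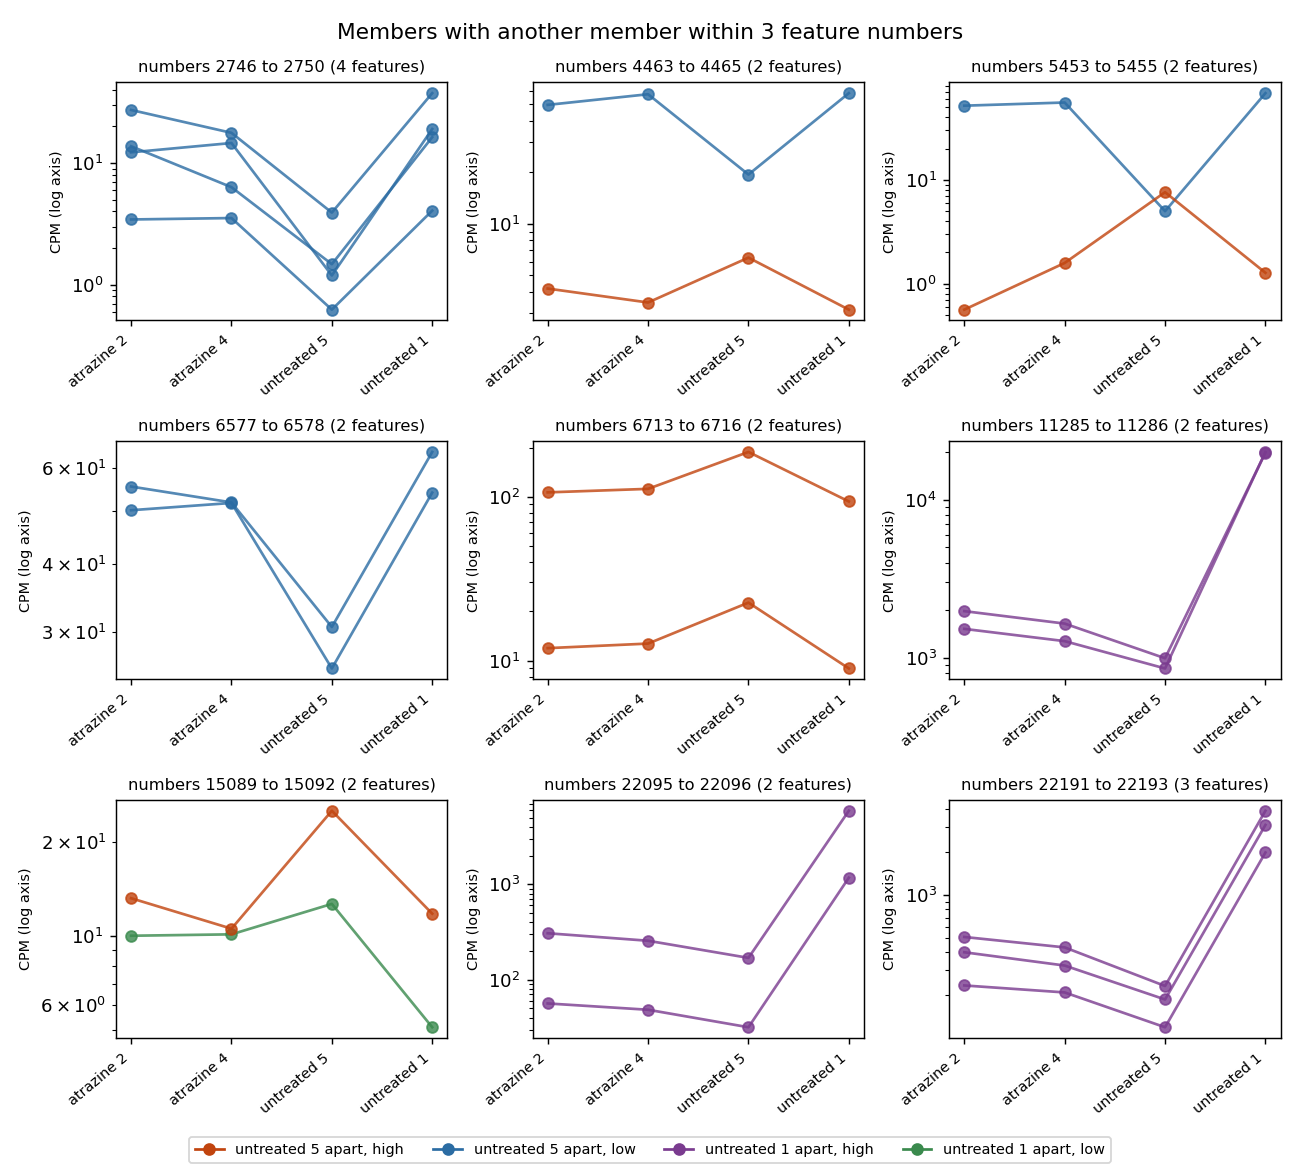
CPM (log axis) of the 21 members that lie within 3 feature numbers of another, 1 panel for each of the 9 runs, with the atrazine libraries left and the untreated libraries right, coloured by pattern. In 6 panels all features share a pattern, and in the panels at 4463, 5453 and 15089 they differ in pattern.

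The comparison of atrazine with untreated libraries asked which transcripts differed with exposure. It used the same libraries as the rule, so its values for these features are a description. The rule asks for untreated libraries at least 2-fold apart and for overlap with the atrazine values. This makes calls among the 109 unlikely beforehand, so the counts of 0 below do not show that exposure had no effect. The edgeR quasi-likelihood test, with Benjamini-Hochberg adjustment over 15196 tested features, called 2.09% of all features at an adjusted p below 0.05 and 0 of the 109. An unadjusted edgeR p below 0.05 was found for 1 of the 109, against 2677 of the 15196 tested. At an adjusted p below 0.05, DESeq2 and limma on log2(CPM + 1) each called 0 of the 109, against 6.0% and 3.39% of all features. At an unadjusted p below 0.05 they gave 9 and 0 of the 109, and the matching shares of all features were not computed. The log2 fold changes of the 109, atrazine over untreated, ran from -3.50 to 1.07 with a median of -0.30, and 16 were at least 2-fold. Their median standard error was 0.42, against 0.13 for all features with at least 4 CPM, which follows from choosing them for their untreated spread.

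The rule chose these features for an untreated pair at least 2-fold apart, so fits with a single control must differ for them, and the counts below describe the selected set. With untreated replicate 5 as the only control, the same test called 62 of the 109, with 31 higher and 31 lower in the atrazine libraries, against 8.04% of all features. With untreated replicate 1 as the only control it called 13, with 3 higher and 10 lower, against 2.45% of all features. In both fits the lone untreated library is assumed to vary like the atrazine pair. The log2 fold change had opposite signs in these fits for 88 of the 109, which the choice of members fixes for the 68 with both atrazine libraries inside the untreated range. All 5 features called in both fits had opposite signs, 4 of them high in untreated replicate 1 and 1 low in untreated replicate 5.

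For the named features, the shift between the fits restates the untreated fold they were chosen by. For rna22096 the log2 fold change, atrazine over untreated, was 0.73 (SE 0.14) against untreated replicate 5 alone and -4.47 (SE 0.13) against untreated replicate 1 alone. For rna11286 these values were 0.87 (SE 0.17) and -3.44 (SE 0.22). For rna9698 they were -0.95 (SE 0.14) and 0.14 (SE 0.13). Only rna5732 was below both, at -3.66 (SE 0.57) and -0.57 (SE 0.74), with the second difference smaller than its standard error.

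**Figure D5:**
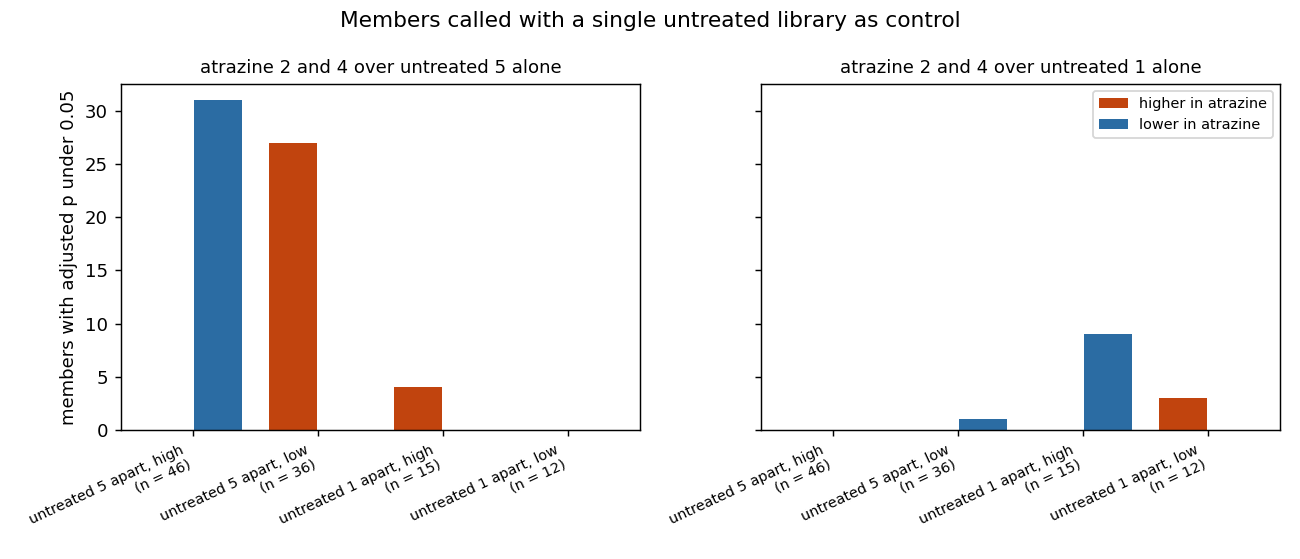
Number of members called by edgeR (y axis, adjusted p below 0.05) in each pattern, higher or lower in the atrazine libraries, with untreated 5 alone (left) or untreated 1 alone (right) as the control. Untreated 5 alone gives 31 higher and 31 lower, and untreated 1 alone gives 3 higher and 10 lower.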

How the data were processed

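Reads were processed by the authors with FastQC, Trimmomatic, GSNAP, Subread, featureCounts and edgeR, per the submitters' processing notes; for versions, genome build, annotation and strand setting the sources used here give nothing. Library preparation used TruSeq RNA kit reagents, version 2, per the labels' protocols. The deposited raw table gives whole read counts of 26646 features. The other deposited table holds CPM for 14528 of them: each column sums to 1000000, and 100% of values gave whole reads within 1e-06, equal to the raw counts.

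The rule was applied to the deposited CPM in Python 3.11.15. The members, lists and tests were chosen with earlier results of these data known. Distances use log2(CPM + 1). Counting intervals of the untreated fold are exact conditional binomial intervals at 95%; reads carry no molecular identifiers. For the group comparison, edgeR 4.0.16 (R 4.3.3) was run on the raw counts (filterByExpr with minimum count 10, TMM, quasi-likelihood F test, no covariate, Benjamini-Hochberg threshold 0.05), checked on simulated data. All 109 members passed the filter. Each library is its own pool of 3 animals, and p-values measure the spread between 2 pools per group. Named features are, in each direction, the member of largest untreated fold with at least 10 reads in both untreated libraries, and that of highest mean CPM. DESeq2 1.42.0, limma 3.58.1, other scalings, limits and left-out libraries were alternatives. Atrazine replicates 2 and 4 had 16044118 and 16468195 reads, untreated replicates 5 and 1 had 17675476 and 16538025. No sequences are shown, since the IDs matched none at hand.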

Additional observations from a re-analysis of the deposited data

How the results depend on the processing

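The size of the set depended on its limits. A minimum of 1 CPM gave 232 features (136 higher in untreated replicate 5, 96 in replicate 1), a fold of 1.5 gave 418 (288 and 130), and a fold of 3 gave 30 (9 and 21), with 19 of these 30 nearer to untreated replicate 1. With a minimum of 10 CPM, 2 features were at least 2-fold apart within the atrazine pair. TMM and RLE scaling each gave 111 features, sharing 104 and 103 with the 109. Leaving the 7 abundant features out of the totals, chosen after seeing the data, gave 102 features, 86 of them shared. Of these, 35 (34.3%) were higher in untreated replicate 5 and 67 in untreated replicate 1, against 53.2% with the deposited CPM. It took the median log2 ratio of untreated replicate 5 over replicate 1 to -0.118, from -0.039, and the fold of rna9698 to 2.00. The number nearer to untreated replicate 1 was 80 to 84 under all of these scalings. Without an atrazine library, 86 to 91 features met the rule. Without an untreated one no set can be formed. A member lay within 1 number of another for 11.0% of members and within 50 for 56.0%. Leaving out single libraries, 0 to 62 members were called between atrazine and untreated: 62 without untreated replicate 1, 13 without replicate 5 and 0 without either atrazine library. RLE scaling, library-size scaling, no filter, DESeq2 and limma each called 0, an outcome that the rule itself makes likely. No paired analysis was possible because no replicate number occurs in both groups. Depth limits the less abundant members, 22 of which had under 50 reads in the lower untreated library, and each group has 2 pools.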

Other observations

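The direction of the difference within one pair of libraries did not go with the direction within the other. In 54 of the 109 members (49.5%) the ratios of atrazine replicate 2 over 4 and of untreated replicate 5 over 1 had the same sign, against 48.3% of all features with at least 4 CPM. Among members, 55 (50.5%) were higher in atrazine replicate 2 than in replicate 4, against 42.3% of all features with at least 4 CPM. They include 12 of the 15 features with untreated replicate 1 apart and high. Of these 12, 7 are the abundant features numbered in 3 runs, which are not separate observations.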
